A study of Mus musculus with 56 samples.

Results

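The 10 genes described here code for the subunits of the transcription factor NF-kB and for regulators that feed back on it: Nfkb1, Nfkb2, Rel, Rela, Relb, Nfkbia, Nfkbid, Nfkbiz, Tnfaip3 and Malt1. They were taken by symbol from a count table of 55011 gene rows, and all 10 were present and passed the low-count filter of each fit. They were followed in regulatory T cells (Tregs, the Foxp3-expressing CD4+ T cells that restrain immune responses) over 56 poly(A) RNA-seq libraries, each made from 1000 double-sorted cells. Ex vivo libraries came from C57BL/6 mice of genotype vTreg53 Tg+, which carry a transgenic T cell receptor and were 12 weeks old when diets began. All held clonotype-positive Tregs, and the labels call the animals recipients. From visceral adipose tissue (VAT) there were HFD groups at weeks 2, 4, 8 and 16, NCD groups at the same weeks and 1 group at week 0. Spleen had the same 9 groups, and HFD and NCD are the labels' names for the 2 diets. A separate culture experiment used mice with the alleles PPARgamma-tdT KI/KI and Foxp3-GFP KI/y on C57BL/6, 8 to 10 weeks old, given 2 IL-33 injections within a week to expand VAT Tregs. Cells positive for the PPARγ reporter were sorted from VAT. These were kept for 3 days with 50 or 0 ng/ml IFNa. All cultures also held IL-2 at 2000 U/ml and IL-33 at 10 ng/ml, and Foxp3/GFP+ cells were sorted at the end. Groups held 3 libraries, except 2 each for VAT HFD week 4, VAT NCD week 16, spleen NCD week 4 and culture with IFNa. The labels do not say that replicates came from separate mice, so the p-values reflect library-to-library spread, which may be technical.

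NF-kB is a family of dimers. In the canonical pathway, signals from the T cell receptor or from cytokine receptors lead to degradation of the inhibitor that Nfkbia codes for, which frees dimers of RelA, c-Rel and the processed Nfkb1 product to enter the nucleus. The slower alternative pathway processes the Nfkb2 product into a partner of RelB. NF-kB then induces several of its own regulators, among them Nfkbia, Tnfaip3, Nfkb2 and Relb, so that mRNA levels of these genes move with pathway activity in many cell types. In Tregs, c-Rel and RelA are known to be needed for Treg development and identity, and VAT Tregs respond to IL-33, whose receptor signals to NF-kB.

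Sequencing depth ran from 3319873 to 6091439 counts per library in VAT, from 3248686 to 5826965 in spleen and from 5408696 to 8764390 in culture, where 3 counts correspond to at most 0.923 CPM (counts-per-million of the library total). Each member lay far above that limit in each library. The Treg factor Foxp3 was at 903 to 1145 CPM in VAT, 701 to 911 CPM in spleen, 538 to 556 CPM in culture with IFNa and 1186 to 1238 CPM in culture without it. The tissue label reads visceral adipose tissue for all libraries, while the titles name spleen for 26 of them, and the titles were followed. Pparg, which marks VAT Tregs, was at 17.8 to 122 CPM in libraries titled VAT and 0 to 7.76 CPM in those titled spleen. Cultured cells, sorted by a PPARγ reporter before culture, had 3.95 to 7.95 CPM of Pparg. In pools of sorted cells, fewer cells that hold a transcript and less of it per cell cannot be told apart.

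Promoters are shown because several of these genes are textbook NF-kB targets. RefSeq windows of 300 bases (250 before an annotated start and 50 after it, build GRCm38.p6) were at hand for 6 of the 10 members. A gene can have several such starts, and the 6 members had 11 windows. Of the 6, 5 held the NF-kB consensus on at least 1 strand in at least 1 of their windows, a share of 83.3%. Of 27025 genes with a window, 9.55% held a match in at least 1 of their windows, and of their 32851 windows 8.46% held one. A gene with more windows has more chances of a match. Capitals mark consensus matches on either strand, overlapping matches run together, and a site that matches on both strands was counted once.
Nfkbia (chr12:55492598-55492897, - strand): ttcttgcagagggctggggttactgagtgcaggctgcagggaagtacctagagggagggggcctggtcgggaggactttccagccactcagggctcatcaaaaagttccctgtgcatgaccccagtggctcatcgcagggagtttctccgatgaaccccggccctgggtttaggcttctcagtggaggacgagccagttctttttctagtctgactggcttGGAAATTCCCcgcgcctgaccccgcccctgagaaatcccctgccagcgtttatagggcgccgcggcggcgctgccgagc
Tnfaip3, first of 2 windows (chr10:19015361-19015660, - strand): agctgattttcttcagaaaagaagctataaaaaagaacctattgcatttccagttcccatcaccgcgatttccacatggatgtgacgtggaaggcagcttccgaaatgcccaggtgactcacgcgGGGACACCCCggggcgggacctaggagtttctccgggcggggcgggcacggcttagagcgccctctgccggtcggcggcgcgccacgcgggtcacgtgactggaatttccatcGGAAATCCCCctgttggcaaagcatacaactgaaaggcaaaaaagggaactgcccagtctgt
Nfkbid, window 2 of 3 (chr7:30422156-30422455, + strand): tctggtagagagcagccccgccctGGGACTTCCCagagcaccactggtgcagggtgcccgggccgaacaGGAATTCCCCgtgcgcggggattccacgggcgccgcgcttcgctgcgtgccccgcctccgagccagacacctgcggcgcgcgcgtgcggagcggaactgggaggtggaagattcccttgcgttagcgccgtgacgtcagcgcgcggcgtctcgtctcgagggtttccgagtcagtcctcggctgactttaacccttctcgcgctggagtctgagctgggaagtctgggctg
Rel (chr11:23770920-23771219, - strand): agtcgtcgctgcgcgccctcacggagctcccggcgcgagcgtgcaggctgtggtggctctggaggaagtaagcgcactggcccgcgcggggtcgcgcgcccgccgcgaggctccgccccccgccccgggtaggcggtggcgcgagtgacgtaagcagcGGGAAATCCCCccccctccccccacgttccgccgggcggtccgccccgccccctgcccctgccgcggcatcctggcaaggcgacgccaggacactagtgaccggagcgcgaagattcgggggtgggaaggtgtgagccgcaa
Nfkb2, window 1 of 3 (chr19:46304487-46304786, + strand): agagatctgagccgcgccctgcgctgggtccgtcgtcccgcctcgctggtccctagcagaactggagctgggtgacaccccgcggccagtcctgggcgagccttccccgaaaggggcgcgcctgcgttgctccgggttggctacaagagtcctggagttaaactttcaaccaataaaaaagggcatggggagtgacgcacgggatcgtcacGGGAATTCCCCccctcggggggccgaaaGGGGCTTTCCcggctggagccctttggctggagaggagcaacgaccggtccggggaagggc
Rela (chr19:5637291-5637590, + strand): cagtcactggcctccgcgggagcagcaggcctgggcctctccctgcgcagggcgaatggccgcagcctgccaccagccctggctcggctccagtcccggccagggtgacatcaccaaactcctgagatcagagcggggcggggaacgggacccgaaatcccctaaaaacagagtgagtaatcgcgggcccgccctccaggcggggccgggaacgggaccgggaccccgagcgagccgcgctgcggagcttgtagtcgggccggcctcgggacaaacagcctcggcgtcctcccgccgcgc

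Positions are counted from the start that each printed window was built on, which is not always the outer end of the gene. The Nfkbia match began at -29, the Tnfaip3 matches at -125 and -12, the Nfkbid matches at -226 and -181, the overlapping Rel matches at -92 and -91, and those of Nfkb2 at -39, -38 and -11. The printed Nfkbid and Nfkb2 windows lie inside the annotated gene spans (chr7:30421732-30428746 and chr19:46304320-46312385). The printed Tnfaip3 window lies almost wholly inside its span (chr10:19000910-19015657). The Rela window held none, and neither did windows 1 and 3 of Nfkbid or the second window of Tnfaip3, which are not printed. The other 2 Nfkb2 windows held further matches. A match describes the letters in these windows and is not evidence that a factor binds there. Promoter sequences of Nfkb1, Relb, Nfkbiz and Malt1 were not used here. On the same build, Nfkb1 lies at chr3:135584655-135691547, Relb at chr7:19606217-19629438 and Nfkbiz at chr16:55811375-55838899, all on the minus strand and all protein coding.

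VAT Tregs held far more mRNA of the feedback regulators Tnfaip3, Nfkbid, Nfkbiz and Nfkbia than spleen Tregs. In libraries without HFD (week 0 and NCD, 5 groups per tissue weighted equally), Tnfaip3, Nfkbid, Nfkbiz and Nfkbia were 31.0-fold, 19.0-fold, 11.8-fold and 6.71-fold higher in VAT. Malt1, Rel and Nfkb1 were moderately higher, and Relb was lower. With the quasi-likelihood test of edgeR and a threshold of 0.05 on the Benjamini-Hochberg adjusted p over all genes tested, which defines a call throughout, 8 of 10 members were higher in VAT Tregs and 1 was lower. In that comparison 59.1% of the 15601 genes tested were called, so a call alone sets no member apart. The median log2 fold change was 1.24 over the members and -0.042 over all genes.

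In this comparison each gene is given by its lowest, median and highest value over the 14 libraries of a tissue. Nfkbia codes for the inhibitor that holds canonical dimers in the cytoplasm and is the most abundant member per length. It had 2959, 4628 and 6079 CPM in VAT Tregs, against 717, 811 and 897 CPM in spleen Tregs, and the ranges did not overlap (log2 fold change 2.75 ± 0.058, SE, edgeR adjusted p = 1.3e-35). Tnfaip3 codes for a ubiquitin-editing enzyme that shuts off signalling upstream of NF-kB. It had 1416, 2742 and 4515 CPM in VAT Tregs, against 61.7, 113 and 191 CPM in spleen Tregs, again with no overlap (log2 fold change 4.96 ± 0.18, SE, edgeR adjusted p = 1.7e-22). Nfkbid codes for an atypical nuclear inhibitor protein known in mice to promote Foxp3 induction. It stood at 526, 972 and 1362 CPM in VAT Tregs, against 28.2, 55.9 and 96.3 CPM in spleen Tregs, and each VAT library exceeded each spleen library (log2 fold change 4.25 ± 0.15, SE, edgeR adjusted p = 1.7e-23). Nfkbiz codes for another nuclear member of the inhibitor family, which acts on secondary response genes. It stood at 561, 1143 and 1377 CPM in VAT Tregs, against 79.3, 106 and 148 CPM in spleen Tregs, without overlap (log2 fold change 3.55 ± 0.11, SE, edgeR adjusted p = 2.5e-25).

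Malt1 codes for the paracaspase that acts with BCL10 between the antigen receptor and NF-kB. It had 141, 199 and 289 CPM in VAT Tregs, against 68.5, 84.8 and 163 CPM in spleen Tregs, and the ranges overlapped at their edges (log2 fold change 1.30 ± 0.085, SE, edgeR adjusted p = 1.4e-17). Rel codes for c-Rel, a canonical subunit. It had 196, 459.5 and 909 CPM in VAT Tregs, against 191, 222 and 285 CPM in spleen Tregs, so that the lowest VAT libraries lay within the spleen range (log2 fold change 1.18 ± 0.12, SE, edgeR adjusted p = 1.7e-10). Those low VAT libraries were NCD week 2 replicate 1, at 202 CPM, and the 3 of NCD week 8, at 267, 224 and 196 CPM. Nfkb1, whose precursor is processed into the DNA-binding partner of RelA and c-Rel, had 156, 232 and 415 CPM in VAT Tregs, against 139, 187 and 227 CPM in spleen Tregs, with wide overlap (log2 fold change 0.57 ± 0.066, SE, edgeR adjusted p = 2.9e-10). Its annotated span overlaps Gm43430 on the same strand, so reads could be split between them and its level is uncertain to that extent.

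Relb, the alternative-pathway subunit, went the other way, with 59.4, 84.1 and 109 CPM in VAT Tregs, against 127, 158 and 219 CPM in spleen Tregs. All 14 VAT libraries lay below the 14 spleen libraries (log2 fold change -0.70 ± 0.072, SE, edgeR adjusted p = 1.2e-11), a level 1.63-fold lower in VAT. Nfkb2, which codes for the precursor of its partner, had 120.3, 149.9 and 189 CPM in VAT Tregs, against 126, 159 and 181 CPM in spleen Tregs, and the ranges overlapped almost fully (log2 fold change 0.15 ± 0.059, SE, edgeR adjusted p = 0.030). Its direction rests on the scaling: mean CPM was 153 ± 20.8 in VAT and 158 ± 16.8 in spleen (SD, n = 14 each), and the fold change turned positive after the scaling factors of 0.87 to 0.99 in VAT and 1.05 to 1.11 in spleen. The Nfkb2 call was lost without the low-count filter (adjusted p = 0.14 by edgeR) and when any 1 of 7 libraries was left out (VAT week 0 replicate 2, VAT NCD week 2 replicate 3, VAT NCD week 16 replicate 3, spleen week 0 replicate 1, spleen NCD week 4 replicate 1, spleen NCD week 8 replicate 1 or spleen NCD week 16 replicate 2), with adjusted p up to 0.068. Nfkb2 also overlaps Psd and a long noncoding gene on the opposite strand, and no source used here states whether counting used strand. Rela, which codes for the main transactivating subunit, had 94.8, 116 and 139 CPM in VAT Tregs, against 102, 126 and 179 CPM in spleen Tregs, with wide overlap, and was not called (log2 fold change 0.020 ± 0.059, SE, edgeR adjusted p = 0.80).

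**Figure D1:**
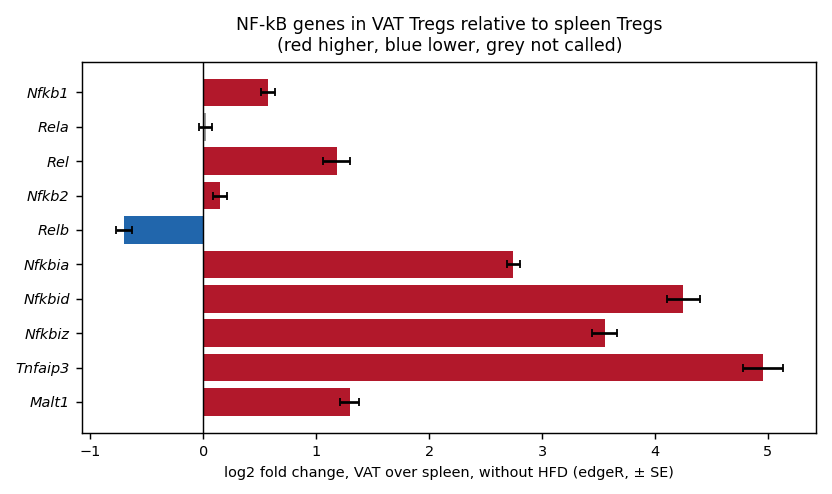
Bars give the log2 fold change of VAT over spleen Tregs in libraries without HFD for each of the 10 genes, with the standard error of the edgeR fit. Tnfaip3, Nfkbid, Nfkbiz and Nfkbia reach 2.75 to 4.96, whereas the 5 subunits lie between -0.70 and 1.18.

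At week 0 alone, with 3 libraries per tissue, 8 members were higher and 1 was lower, beside 31.3% of all genes called. Tnfaip3 was at 3825, 3779 and 3449.5 CPM in VAT and 65.7, 99.8 and 69.3 CPM in spleen (log2 fold change 5.75 ± 0.38, SE, edgeR adjusted p = 4.8e-14). Relb was at 85.8, 99.8 and 95.1 CPM in VAT and 140.0, 127 and 165 CPM in spleen (log2 fold change -0.42 ± 0.15, SE, edgeR adjusted p = 0.030). The groups of both genes were apart. The Relb call at week 0 was lost without VAT replicate 1 (adjusted p = 0.11 by edgeR), without VAT replicate 3 (0.062), without spleen replicate 3 (0.19) and without the low-count filter (0.095).

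Per kilobase of exon, the order of levels differed between tissues. The length used is the union of all annotated exons of a gene, from 1610 bases for Nfkbia to 12061 for Nfkb1 and 18040 for Malt1. It can exceed the length of the transcript expressed, so the places of Nfkb1 and Malt1 in the order are uncertain. In VAT Tregs without HFD, Nfkbia averaged 2875 ± 479 CPM per kb (SD, n = 14), followed by Tnfaip3 at 421 ± 134, Nfkbid at 393 ± 103, Nfkbiz at 218 ± 47.5, Rel at 62.8 ± 28.3, Rela at 37.3 ± 5.07, Nfkb2 at 33.3 ± 4.55, Relb at 22.2 ± 4.16, Nfkb1 at 20.8 ± 6.00 and Malt1 at 11.4 ± 2.02 CPM per kb. Tnfaip3 and Nfkbid, Rel and Rela, Rela and Nfkb2, and Relb and Nfkb1 differed by less than the larger of their SDs. In spleen Tregs without HFD, Nfkbia again stood first at 502 ± 32.6 CPM per kb (SD, n = 14), but Rela (42.6 ± 6.22), Relb (41.1 ± 6.00), Nfkb2 (34.5 ± 3.66) and Rel (30.02 ± 3.37) came before Nfkbid (24.95 ± 7.24), Nfkbiz (21.6 ± 3.94), Tnfaip3 (16.3 ± 5.24), Nfkb1 (15.4 ± 1.89) and Malt1 (5.67 ± 1.73 CPM per kb). In spleen, Rela and Relb, Rel and Nfkbid, Nfkbid and Nfkbiz, and Tnfaip3 and Nfkb1 lay within 1 SD of each other.

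Genes for the signalling proteins upstream of NF-kB were called in both directions. Of 30 upstream genes tested (kinases, adaptors and ubiquitin enzymes), 5 were higher and 10 lower in VAT Tregs, beside 29.1% of all genes higher and 30% lower, with a median log2 fold change of -0.00039 against -0.042 over all genes. Irak2, a kinase below the IL-1 family receptors that include the IL-33 receptor, averaged 139 ± 12.7 CPM in VAT and 80.5 ± 12.2 CPM in spleen (SD, n = 14 each, log2 fold change 0.99 ± 0.070, SE, edgeR adjusted p = 9.8e-17), while Nfkbib and Tnip2 were higher by 0.40 and 0.33 on the log2 scale. Prkcq, a kinase that acts below the T cell receptor, averaged 195 ± 50.6 CPM in VAT and 680.5 ± 96.3 CPM in spleen (log2 fold change -1.65 ± 0.10, SE, edgeR adjusted p = 1.1e-16). Traf5, an adaptor of tumour necrosis factor receptors, averaged 42.2 ± 13.2 CPM in VAT and 115 ± 6.99 CPM in spleen (log2 fold change -1.34 ± 0.090, SE, edgeR adjusted p = 2.3e-17), and Rbck1 had a log2 fold change of -0.51.

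Known NF-kB target genes went both ways, most of them higher in VAT. Of 30 tested, 20 were higher and 10 lower in VAT Tregs (median log2 fold change 0.66). Over all genes 29.1% were higher and 30% lower. The stress-response gene Gadd45b averaged 1661 ± 229.5 CPM in VAT and 50.2 ± 9.40 CPM in spleen (SD, n = 14 each, log2 fold change 5.29 ± 0.13, SE, edgeR adjusted p = 4.1e-28). The survival gene Bcl2l1 averaged 411 ± 68.9 CPM in VAT and 81.4 ± 9.25 CPM in spleen (log2 fold change 2.56 ± 0.087, SE, edgeR adjusted p = 4.5e-27), and Tnf was higher by 1.80 on the log2 scale. The lymphotoxin genes were lower. Lta averaged 4.41 ± 2.53 CPM in VAT and 49.5 ± 10.9 CPM in spleen (log2 fold change -3.42 ± 0.15, SE, edgeR adjusted p = 4.6e-24). Ltb averaged 333 ± 50.8 CPM in VAT and 1118 ± 74.7 CPM in spleen (log2 fold change -1.56 ± 0.051, SE, edgeR adjusted p = 1.1e-28). Ikbke had a log2 fold change of -1.22. The 24 genes listed as immediate early or heat shock, which also respond to tissue dissociation, moved with Tnfaip3, Nfkbid, Nfkbiz and Nfkbia. 22 were higher and 1 lower in VAT, with a summed level of 22518 to 38723 CPM in VAT and 2316 to 3488 CPM in spleen. B cell markers summed to 321 to 6091 CPM in VAT and 1293 to 2678 CPM in spleen, and macrophage markers to 1.80 to 7.74 CPM in VAT and 2.91 to 27.5 CPM in spleen. The part of these groups in the tissue difference was not tested.

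Under HFD, the alternative-pathway subunit Relb was called higher in VAT Tregs at weeks 8 and 16. At week 16 its partner Nfkb2 was also called higher and the inhibitor Nfkbia lower. The question of this comparison is what the diet does to VAT Tregs over time, and each week had its own NCD group. At week 2 edgeR called 0 of 10 members beside 0.0565% of all genes, and at week 4 0 beside 0.0212%. At week 8 it called 1 member (higher) beside 1.33%, and at week 16 it called 3 (2 higher, 1 lower) beside 9.24%. Without HFD week 16 replicate 2 the week 16 count was 5, with Nfkbid and Nfkbiz added. The share of all genes called in that fit is not given here, so this rise is not read as a result about the members.

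Relb had 88.8, 108 and 106 CPM in HFD and 82.0, 109 and 93.3 CPM in NCD libraries at week 2. It had 81.0 and 74.6 CPM in HFD and 107, 106 and 82.4 CPM in NCD at week 4. Neither week was called (adjusted p = 0.67 and 0.58 by edgeR). At week 8 it had 139, 126 and 146 CPM in HFD and 76.5, 61.4 and 75.6 CPM in NCD (log2 fold change 0.92 ± 0.14, SE, edgeR adjusted p = 0.00066), a 1.90-fold difference. At week 16 it had 201, 184 and 153 CPM in HFD and 73.9 and 59.4 CPM in NCD (log2 fold change 1.31 ± 0.16, SE, edgeR adjusted p = 4.2e-06), a 2.48-fold difference. Each HFD library exceeded each NCD library at both weeks, and both calls held under each alternative run. The week 16 HFD level lay in the range of spleen Tregs, 127 to 239.5 CPM. Nfkb2 was apart at week 8 without a call, at 166 to 177 CPM in HFD and 120 to 142 CPM in NCD, a 1.27-fold difference. At week 16 Nfkb2 had 229.9, 211 and 183 CPM in HFD and 129 and 134 CPM in NCD, again apart (log2 fold change 0.55 ± 0.13, SE, edgeR adjusted p = 0.0077). Its call was lost without NCD replicate 2 (adjusted p = 0.11 by edgeR), without NCD replicate 3 (0.064) and when only the 2 groups were fitted (0.063).

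Nfkbia had 5968, 5639 and 5694 CPM in HFD and 2959, 4117 and 4491 CPM in NCD libraries at week 2. At week 4 it had 6073 and 6261 CPM in HFD and 5011, 4667 and 5093 CPM in NCD, and at week 8 4888, 5535 and 5789 CPM in HFD and 4082, 4259 and 4087 CPM in NCD. Each HFD library exceeded each NCD library at these 3 weeks, with no call (adjusted p from 0.062 to 0.43 by edgeR). At week 16 the order was turned round, with 2567, 4500.3 and 3631 CPM in HFD and 5826 and 6079 CPM in NCD (log2 fold change -0.85 ± 0.16, SE, edgeR adjusted p = 0.00078), a level 1.81-fold lower under HFD. HFD replicate 1 was the lowest, and the call held under each alternative (log2 fold change -1.07 to -0.67 when 1 library was left out). Nfkbiz had 525, 1055 and 876 CPM in HFD and 1331 and 1138 CPM in NCD at week 16 and was not called (log2 fold change -0.71 ± 0.26, SE, edgeR adjusted p = 0.11). Nfkbid was at 605, 948 and 750.2 CPM in HFD and 1362 and 854 CPM in NCD, with overlap and no call (log2 fold change -0.64 ± 0.24, SE, edgeR adjusted p = 0.11). Tnfaip3 overlapped widely, at 1985, 4377 and 3130.3 CPM in HFD and 4423 and 2686 CPM in NCD. Nfkbid and Nfkbiz passed the threshold at week 16 by DESeq2 (adjusted p = 0.047 and 0.036, beside 10.9% of all genes called) and without HFD replicate 2 (0.040 and 0.034 by edgeR).

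Malt1 had a higher mean in HFD than in NCD libraries at all 4 weeks. It had 299.8, 216 and 239 CPM in HFD and 209.7, 178 and 141 CPM in NCD libraries at week 2. It had 349 and 289.6 CPM in HFD and 189, 230.1 and 192 CPM in NCD at week 4. At week 8 it had 282, 307 and 296 CPM in HFD and 200.1, 289 and 197 CPM in NCD. At week 16 it had 315, 409 and 407 CPM in HFD and 241 and 239.6 CPM in NCD. The groups were apart at weeks 2, 4 and 16, and at week 8 the highest NCD library lay inside the HFD range. No single week was called. The week 16 difference lay next to the threshold (log2 fold change 0.53 ± 0.17, SE, edgeR adjusted p = 0.053) and passed it under 6 alternatives, with adjusted p from 0.014 to 0.047.

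Rel spread widely between NCD groups. It had 700.4, 795 and 726 CPM in HFD and 202, 706 and 909 CPM in NCD libraries at week 2, where NCD replicate 1 stood far below the others. It had 569, 457 and 554 CPM in HFD and 267, 224 and 196 CPM in NCD at week 8, where the groups were apart but the fit over all VAT groups made no call (log2 fold change 1.18 ± 0.35, SE, edgeR adjusted p = 0.13). With only the 2 week 8 groups the adjusted p was 0.0012 by edgeR, and by DESeq2 0.029. At week 16 Rel had 390.0, 788 and 716 CPM in HFD and 406 and 378 CPM in NCD, with overlap. At week 2, 7 members had an unadjusted p under 0.05 by edgeR, all higher under HFD, beside 1429 of the 14164 genes tested. Among the 7 was Tnfaip3 at 3869.9, 5184 and 4949 CPM in HFD and 1416, 2242 and 1869 CPM in NCD (log2 fold change 1.45 ± 0.36, SE, edgeR adjusted p = 0.18). DESeq2 called 4 members there (Nfkbia, Nfkbid, Tnfaip3 and Malt1) beside 0.628% of all genes, and limma 1 beside 0.12%. Without NCD replicate 3 edgeR called 2 beside 0.214% of all genes, Nfkb1 (adjusted p = 0.030) and Nfkbia (0.030). Without NCD replicate 1 it called Malt1 alone (0.042) beside 0.381% of all genes. At week 4 the unadjusted count was 2, beside 1385 of the 14164 genes tested. DESeq2 called 1 member (Malt1) there beside 0.499% of all genes and limma 0 beside 0.0777%.

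**Figure D2:**
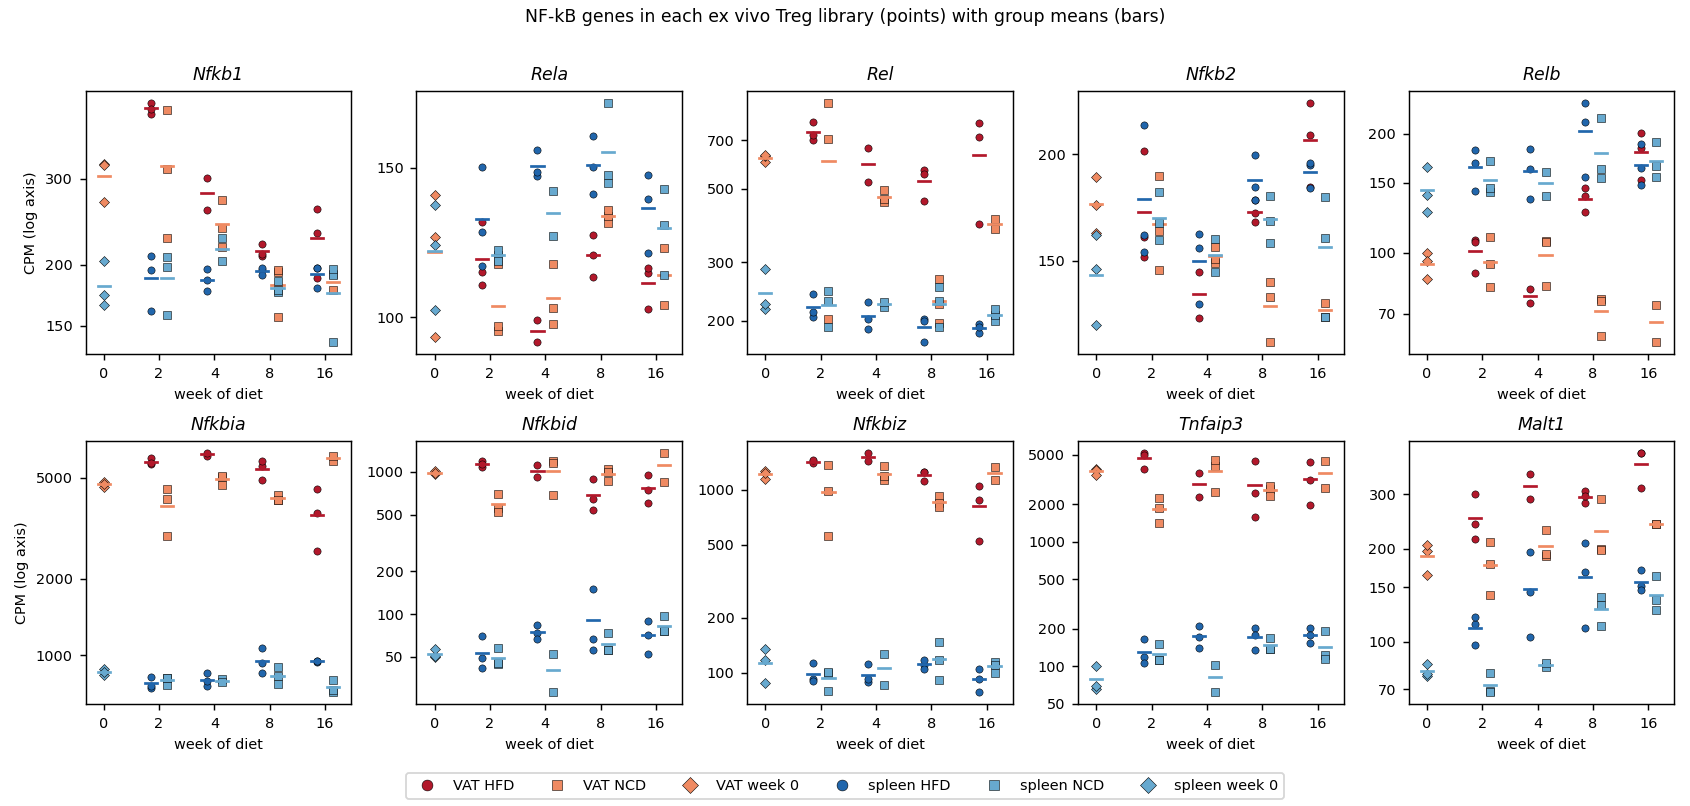
Each panel gives the CPM of 1 gene (log axis) against the week of diet, with points for libraries and bars for group means, VAT in red and spleen in blue. Tnfaip3, Nfkbid, Nfkbiz and Nfkbia hold VAT and spleen far apart at all weeks. Relb in VAT HFD reaches the spleen range at week 16, at 201, 184 and 153 CPM.

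Averaged over the 4 weeks with equal weight, 4 members were higher under HFD and 0 lower, beside 4.2% of all genes called. Over the 11 libraries per diet, Malt1 averaged 310.0 ± 60.2 CPM in HFD and 209.8 ± 39.1 CPM in NCD (SD, n = 11 each, log2 fold change 0.55 ± 0.082, SE, edgeR adjusted p = 0.00016), and its call held under each alternative. Relb averaged 128 ± 41.2 CPM in HFD and 84.3 ± 17.6 CPM in NCD (log2 fold change 0.54 ± 0.073, SE, edgeR adjusted p = 5.8e-05). Nfkb1 averaged 285 ± 91.0 CPM in HFD and 236 ± 74.4 CPM in NCD (log2 fold change 0.29 ± 0.079, SE, edgeR adjusted p = 0.032). Nfkb2 averaged 175 ± 29.99 CPM in HFD and 147 ± 18.5 CPM in NCD (log2 fold change 0.24 ± 0.063, SE, edgeR adjusted p = 0.026). Over weeks 2, 4 and 8 alone, an alternative added after seeing the data, Relb (log2 fold change 0.28, adjusted p = 0.12), Nfkb1 (adjusted p = 0.088) and Nfkb2 (log2 fold change 0.14, adjusted p = 0.47) lost their edgeR calls. Nfkbia gained one (0.48, adjusted p = 0.0058).

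Of the 4 members called in the average, Nfkb1 and Nfkb2 both lost their calls without HFD week 2 replicate 2. The averaged Nfkb1 call was lost when any 1 of these libraries was left out, with the edgeR adjusted p in parentheses: NCD week 4 replicate 3 (0.057), NCD week 8 replicate 3 (0.050), NCD week 16 replicate 2 (0.10), NCD week 16 replicate 3 (0.060), HFD week 2 replicate 2 (0.056), HFD week 4 replicate 2 (0.11), HFD week 8 replicate 2 (0.054), HFD week 8 replicate 3 (0.051) and HFD week 16 replicate 3 (0.063). The averaged Nfkb2 call was lost without the low-count filter (0.058) and without any 1 of NCD week 16 replicate 2 (0.081), NCD week 16 replicate 3 (0.055), HFD week 2 replicate 2 (0.058) and HFD week 4 replicate 2 (0.091). Rel, not called in the average (adjusted p = 0.066 by edgeR), passed without NCD week 2 replicate 1 (0.0024), without NCD week 2 replicate 3 (0.021) and without HFD week 16 replicate 1 (0.034).

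The difference between the week 16 diet effect and the mean effect at weeks 2, 4 and 8 was tested directly. It was higher at week 16 for 1 member and lower for 2, beside 7.12% of all genes called. Relb differed by 1.03 ± 0.18 on the log2 scale (SE, edgeR adjusted p = 0.00051). Nfkbia differed by -1.33 ± 0.18 (adjusted p = 7.0e-05) and Nfkbiz by -1.21 ± 0.30 (adjusted p = 0.018). Thus the Nfkbia and Nfkbiz mRNAs, on the higher side under HFD at the 3 earlier weeks, stood on the lower side at week 16. Relb stood higher there. Nfkb2 was not called for this difference (log2 fold change 0.41, edgeR adjusted p = 0.11). The Nfkbiz difference lost its call without NCD week 16 replicate 2 (adjusted p = 0.12 by edgeR) or replicate 3 (0.064).

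Other gene groups moved with the week 16 result, where 4.31% of all genes were higher and 4.93% lower under HFD. Among the 24 genes listed as immediate early or heat shock, 13 were lower and 0 higher under HFD, and their summed level was 13674, 26386 and 18337 CPM in HFD and 38723 and 37742 CPM in NCD. Among the 3 HFD libraries, replicate 1 was lowest in that sum and also in Nfkbia, Nfkbiz, Nfkbid, Rel and Tnfaip3, and highest in Relb and Nfkb2. Of 9 VAT Treg genes such as Pparg and Il1rl1, 6 were lower and 0 higher. Pparg itself had 17.8, 52.8 and 23.4 CPM in HFD and 113 and 99.7 CPM in NCD. Of 11 B cell markers 7 were tested and 1 was higher, with a summed level of 1644 to 2455 CPM in HFD and 321 to 335 CPM in NCD, most of it Ighm (2425, 1626 and 1937 CPM in HFD and 331 and 315 CPM in NCD). The gene called was Cd79b, a chain of the B cell receptor complex, at 18.2, 11.1 and 18.2 CPM in HFD and 1.04 and 3.00 CPM in NCD (log2 fold change 2.86 ± 0.59, SE, edgeR adjusted p = 0.0016), and Ms4a1 had 5.48, 1.03 and 0 CPM in HFD and 0.691 and 1.40 CPM in NCD. Of the 11, 3 were at 0 throughout the HFD libraries and 1 throughout the NCD libraries, and Pax5 was at 0 under both diets. Of 8 dendritic cell markers 3 were tested, 1 higher and 1 lower, summed to 51.4 to 78.5 CPM in HFD and 14.2 to 19.4 CPM in NCD, with Itgax, Clec9a and Cd209a at 0 under both diets and Siglech at 0 in NCD. Of 10 macrophage markers 3 were tested, with summed levels of 4.06 to 8.05 CPM in HFD and 1.80 to 3.28 CPM in NCD. Of 10 NK and CD8 cell markers 8 were tested and 1 was higher, and of 5 endothelial markers 1 was tested and was higher. The part of these gene groups in the week 16 differences was not tested.

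Among the 30 upstream genes, edgeR called 5 higher and 0 lower at week 16, beside 4.31% of all genes higher and 4.93% lower. It called 0 at week 8 and 0 in the mean of weeks, beside 1.33% and 4.2% of all genes. Of the 30, 2 and 7 had an unadjusted p under 0.05 there, beside 1859 and 2323 of the 14164 genes tested. At week 16 the median log2 fold change was 0.14 against 0.024 over all genes. The ubiquitin ligase gene Birc2, whose product restrains the alternative pathway, averaged 324 ± 54.0 CPM in HFD (SD, n = 3) and 168 ± 5.33 CPM in NCD (SD, n = 2, log2 fold change 0.83 ± 0.17, SE, edgeR adjusted p = 0.0021). Traf5 averaged 58.3 ± 15.3 CPM in HFD and 23.1 ± 3.17 CPM in NCD (log2 fold change 1.21 ± 0.27, SE, edgeR adjusted p = 0.0039), and Traf2, the adaptor that recruits Birc2, was higher by 0.63 on the log2 scale.

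Among the 30 target genes, 5 were higher and 1 lower at week 8, beside 0.833% of all genes higher and 0.501% lower. At week 16, 9 were higher and 6 lower, beside 4.31% and 4.93%. In the mean of weeks, 8 were higher and 3 lower, beside 2.34% and 1.86%. The medians of the target genes were 0.45, 0.25 and 0.28. Tnfrsf9, a costimulatory receptor, led at week 8 with 592 ± 27.1 CPM in HFD and 245 ± 54.4 CPM in NCD (SD, n = 3 each, log2 fold change 1.25 ± 0.15, SE, edgeR adjusted p = 0.00014), followed by Ltb (0.84 on the log2 scale) and Tnfrsf4 (0.79), while Tnf was lower (-0.96). At week 16 Ltb, which codes for a membrane lymphotoxin, averaged 805 ± 113 CPM in HFD (SD, n = 3) and 249.2 ± 7.96 CPM in NCD (SD, n = 2, log2 fold change 1.57 ± 0.15, SE, edgeR adjusted p = 9.7e-08). Ebi3 and Tnfrsf9 were higher by 1.40 and 0.91 on the log2 scale. Irf4, a transcription factor of effector Tregs, averaged 91.3 ± 24.9 CPM in HFD and 282 ± 16.3 CPM in NCD (log2 fold change -1.74 ± 0.22, SE, edgeR adjusted p = 1.6e-05). Tnf averaged 70.0 ± 6.55 CPM in HFD and 185 ± 32.4 CPM in NCD (log2 fold change -1.52 ± 0.21, SE, edgeR adjusted p = 2.2e-05). The IL-2 receptor gene Il2ra averaged 505 ± 53.9 CPM in HFD and 994 ± 17.8 CPM in NCD (log2 fold change -1.09 ± 0.16, SE, edgeR adjusted p = 7.5e-05). In the mean of weeks the called targets with the smallest p, given with their log2 fold changes, were Ltb (0.63), Tnfrsf9 (0.67) and Tnfrsf4 (0.51) on the higher side. Those on the lower side were Tnf (-0.80), Irf4 (-0.48) and Sod2 (-0.28). Il2ra also belongs to the Treg identity list, of which 3 of 12 genes were higher and 2 lower at week 16.

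In spleen Tregs few of these genes were called between diets, Malt1 and Tnfaip3 being higher under HFD at week 4. Of the members, edgeR called 0 at week 2 beside 0.0272% of all genes and 2 at week 4 (both higher) beside 1.24%. It called 0 at week 8 beside 0.0%, 0 at week 16 beside 0.0%, and 1 (higher) in the mean of weeks beside 0.933%. At weeks 2, 8 and 16 the counts at an unadjusted p under 0.05 were 1, 3 and 2, beside 1402, 716 and 975 of the 14686 genes tested. DESeq2 called 0, 0 and 1 members at these weeks, and limma 0, 0 and 0. Over all genes DESeq2 called 0.346% and limma 0.0272% at week 2. Over all genes edgeR called 0 at weeks 8 and 16, with 716 and 975 at an unadjusted p under 0.05, while DESeq2 called 1 and 21 and limma 0 and 0.

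Malt1 had 103, 145 and 195 CPM in HFD and 82.9 and 85.3 CPM in NCD spleen libraries at week 4 (log2 fold change 0.81 ± 0.21, SE, edgeR adjusted p = 0.049), and the groups were apart. In the mean of weeks it averaged 144 ± 36.2 CPM in HFD (SD, n = 12) and 108 ± 32.8 CPM in NCD (SD, n = 11, log2 fold change 0.48 ± 0.095, SE, edgeR adjusted p = 0.014). The averaged call was lost without NCD week 4 replicate 2. Tnfaip3 passed in the average without NCD week 16 replicate 1 (adjusted p = 0.025 by edgeR) or HFD week 8 replicate 3 (0.045). Without NCD week 4 replicate 1 its averaged log2 fold change was 0.53. The shares of all genes called in these fits are not given here. Tnfaip3 had 209, 141 and 172 CPM in HFD and 103 and 61.7 CPM in NCD at week 4, also apart (log2 fold change 1.08 ± 0.26, SE, edgeR adjusted p = 0.037). It lost its call without NCD replicate 2 (log2 fold change 0.76, adjusted p = 0.84 by edgeR), without HFD replicate 1 (0.16) and without HFD replicate 3 (0.084). Malt1 at week 4 lost its call without either NCD library (0.15 without replicate 1 and 0.55 without replicate 2), without HFD replicate 2 (0.11) or 3 (0.37), in limma (0.20), with a replicate block (0.088) and with only the 2 groups (0.13). Nfkbia, not called, had 939, 954 and 951 CPM in HFD and 804, 717 and 733 CPM in NCD spleen libraries at week 16 (log2 fold change 0.33 ± 0.083, SE, edgeR adjusted p = 0.35), and the groups were apart. Over all 26 spleen libraries, Nfkb1 spanned 139 to 227 CPM, Nfkb2 126 to 217 CPM and Nfkbiz 78.3 to 148 CPM. Rela was not called in any comparison of this study, and spanned 93.5 to 139 CPM in VAT, 102 to 179 CPM in spleen and 98.1 to 122 CPM in culture.

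**Figure D3:**
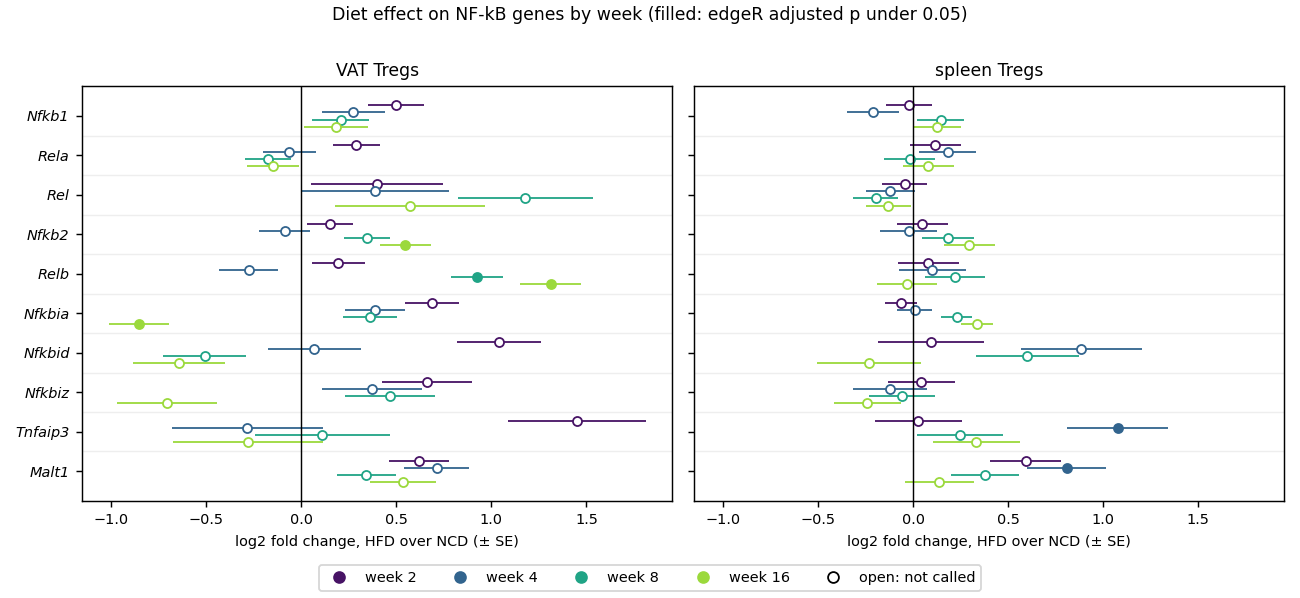
Points give the log2 fold change of HFD over NCD with its standard error for each gene and week, VAT at left and spleen at right, and filled points passed the edgeR threshold. In VAT, Relb lies at 0.92 and 1.31 at weeks 8 and 16 and Nfkbia at -0.85 at week 16, while in spleen only Tnfaip3 and Malt1 at week 4 are filled.

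The diet effects in VAT and in spleen were compared in 1 fit over all 51 ex vivo libraries. At week 16 the VAT effect exceeded the spleen effect for 1 member and fell short of it for 1, beside 4.46% of all genes called. Relb differed by 1.32 ± 0.23 (SE, edgeR adjusted p = 0.00017) and Nfkbia by -1.22 ± 0.17 (adjusted p = 7.2e-06), both on the log2 scale. Both differences kept their calls under each alternative. In the mean of weeks 2 members had a larger effect in VAT and 0 a smaller one, beside 2.44% of all genes. Rel differed by 0.74 ± 0.19 (edgeR adjusted p = 0.026) and Relb by 0.44 ± 0.11 (adjusted p = 0.025). Rel averaged 625 ± 135 CPM in HFD and 428 ± 222 CPM in NCD in VAT (SD, n = 11 each), and 202 ± 18.8 CPM in HFD (n = 12) and 219 ± 20.4 CPM in NCD (n = 11) in spleen. The Rel difference lost its call without spleen NCD week 4 replicate 2 (adjusted p = 0.053 by edgeR), VAT NCD week 16 replicate 3 (0.052) or VAT HFD week 4 replicate 2 (0.062). The Relb difference lost it without VAT NCD week 16 replicate 3 (0.062). Malt1, called in the averages of both tissues, was not called for a difference between them (log2 fold change 0.062 ± 0.13, SE, edgeR adjusted p = 0.92).

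Against week 0, which shares its libraries between both diets' comparisons, VAT Tregs at HFD week 16 had 2 members higher and 0 lower, beside 5.13% of all genes called. Relb had 201, 184 and 153 CPM at HFD week 16 and 85.8, 99.8 and 95.1 CPM at week 0 (log2 fold change 0.87 ± 0.14, SE, edgeR adjusted p = 0.00028). Malt1 had 315, 409 and 407 CPM at HFD week 16 and 164, 197 and 205 CPM at week 0 (log2 fold change 0.93 ± 0.16, SE, edgeR adjusted p = 0.00053). Both genes had their groups apart. Nfkbia was not called against week 0 at HFD week 16 (log2 fold change -0.47, edgeR adjusted p = 0.056) or NCD week 16 (0.39, adjusted p = 0.28). DESeq2 called it at HFD week 16 (adjusted p = 0.035). Its mean was 4710 CPM at week 0, 3566 CPM at HFD week 16 and 5952 CPM at NCD week 16, so its week 16 diet difference spans shifts on both sides of week 0. Without HFD week 16 replicate 2 the count of called members was 4, beside 5.32% of all genes. At NCD week 16 edgeR called 0 members beside 0.713% of all genes. At an unadjusted p under 0.05 there were 5 members, beside 1861 of the 14164 genes tested. DESeq2 called 1 member beside 3% of all genes and limma 1 beside 2.74%. The member nearest the threshold was Nfkb1, with 177 and 191 CPM at NCD week 16 and 268, 322 and 321 CPM at week 0 (log2 fold change -0.67 ± 0.17, SE, edgeR adjusted p = 0.055), and its HFD value against week 0 was on the same side (log2 fold change -0.49 ± 0.15, SE, edgeR adjusted p = 0.051).

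In spleen, NCD week 16 had 1 member higher than week 0 beside 0.654% of all genes, and HFD week 16 had 2 beside 1.44%. Malt1 had 151, 146 and 170.2 CPM at HFD week 16 (log2 fold change 0.94 ± 0.19, SE, edgeR adjusted p = 0.013) and 136, 126 and 163 CPM at NCD week 16 (log2 fold change 0.81 ± 0.19, SE, edgeR adjusted p = 0.033), against 84.4, 77.6 and 78.5 CPM at week 0, with no overlap. Tnfaip3 had 205, 155 and 179 CPM at HFD week 16 and 65.7, 99.8 and 69.3 CPM at week 0 (log2 fold change 1.18 ± 0.23, SE, edgeR adjusted p = 0.014). The Malt1 call at NCD week 16 was lost when any 1 of the 6 libraries was left out (adjusted p up to 0.15 by edgeR) and in limma. At HFD week 16, Malt1 lost its call without week 0 replicate 1 (0.053), week 0 replicate 2 (0.073) or HFD replicate 1 (0.077). Tnfaip3 lost it without week 0 replicate 1 (0.089) or HFD replicate 1 (0.098). Malt1 thus was higher at week 16 than at week 0 in spleen under both diets and in VAT under HFD, and time on diet and age cannot be told apart in these comparisons.

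Cultured VAT Tregs held more mRNA of both alternative-pathway subunits with interferon alpha (IFNa), a type I interferon, than without it. With IFNa, 5 of 10 members were higher and 1 was lower than without it, beside 21.7% of all genes called, and the median log2 fold change was 0.20 over the members and 0.010 over all genes. Relb had 177 and 159 CPM with IFNa and 118, 114 and 114 CPM without it (log2 fold change 0.58 ± 0.090, SE, edgeR adjusted p = 7.0e-05). Nfkb2 had 308 and 297 CPM with IFNa and 219, 217 and 226 CPM without it (log2 fold change 0.50 ± 0.079, SE, edgeR adjusted p = 9.5e-05). Rel had 103 and 107 CPM with IFNa and 71.2, 77.9 and 77.8 CPM without it (log2 fold change 0.52 ± 0.10, SE, edgeR adjusted p = 0.00083). These 3 subunits, picked here by their calls, were higher in each library with IFNa than in each without it. The share of all genes apart in this way is not given here, so this describes the values only.

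Nfkbia had 1160.3 and 1186 CPM with IFNa and 908, 1056 and 979 CPM without it (log2 fold change 0.30 ± 0.077, SE, edgeR adjusted p = 0.0073). Tnfaip3 had 162 and 106 CPM with IFNa and 85.4, 76.9 and 100.2 CPM without it (log2 fold change 0.65 ± 0.17, SE, edgeR adjusted p = 0.023). The libraries with and without IFNa were apart for both genes, for Tnfaip3 narrowly. Malt1 was the only member that fell by this test, with 108 and 94.5 CPM with IFNa and 145, 147 and 147 CPM without it (log2 fold change -0.49 ± 0.095, SE, edgeR adjusted p = 0.00074). Nfkb1, Rela, Nfkbid and Nfkbiz were not called, with log2 fold changes from -0.10 to 0.10. The Nfkbia call was lost without the IL-33 culture replicate 3 (adjusted p = 0.057 by edgeR) or the IFNa culture replicate 2 (0.061). The Tnfaip3 call was lost without IL-33 culture replicate 1 (0.15) or 2 (0.11) or IFNa culture replicate 1 (log2 fold change 0.33, adjusted p = 0.11). Foxp3 moved with the treatment as well, at 538 to 556 CPM with IFNa and 1186 to 1238 CPM without it, and its part in these differences was not tested.

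Of the 30 upstream genes, 9 were higher and 0 lower with IFNa (median log2 fold change 0.22), beside 10.6% of all genes higher and 11% lower. The ubiquitin ligase gene Traf6 averaged 114 ± 9.36 CPM with IFNa (SD, n = 2) and 58.8 ± 8.91 CPM without it (SD, n = 3, log2 fold change 1.00 ± 0.12, SE, edgeR adjusted p = 2.4e-06), and Birc2 and Rbck1 were higher by 0.51 and 0.41 on the log2 scale. Of 29 target genes tested, 14 were higher and 2 lower (median 0.32), beside the same shares of all genes. The activation marker Cd83 averaged 53.9 ± 6.22 CPM with IFNa and 14.1 ± 2.56 CPM without it (log2 fold change 1.98 ± 0.17, SE, edgeR adjusted p = 1.6e-08), and Ccr7 and Stat5a were higher by 1.57 and 0.93. Il2ra averaged 1593 ± 121 CPM with IFNa and 2686 ± 39.2 CPM without it (log2 fold change -0.71 ± 0.072, SE, edgeR adjusted p = 2.6e-07), and Irf1 was the other target gene that fell, by 0.47 on the log2 scale.

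**Figure D4:**
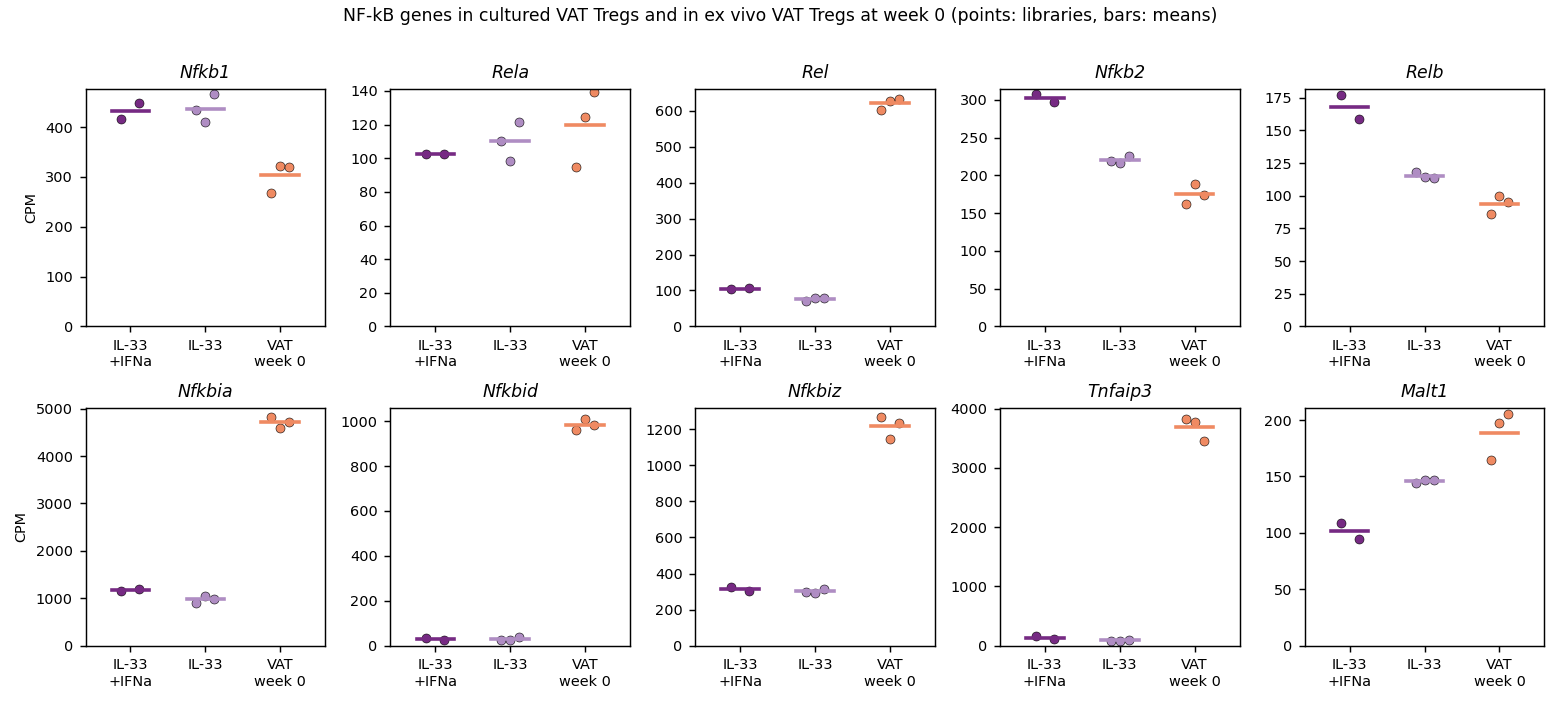
Panels give CPM per library (points) and group means (bars) for each gene in VAT Tregs cultured with IL-33 and IFNa, cultured with IL-33 and ex vivo at week 0. Relb reaches 177 and 159 CPM with IFNa against 118, 114 and 114 CPM without it, and Tnfaip3 and Nfkbid are near the axis in culture compared with ex vivo.

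Cultured VAT Tregs held less mRNA of Tnfaip3, Nfkbid, Nfkbiz and Nfkbia than ex vivo VAT Tregs. Cultures without IFNa were set beside ex vivo VAT Tregs of week 0, which differ from them in mouse line, age, IL-33 injection, sort and culture, so these causes cannot be told apart. Of the 10 members 3 were higher and 5 lower in culture, beside 49.5% of all genes called. Tnfaip3 had 85.4, 76.9 and 100.2 CPM in culture and 3825, 3779 and 3449.5 CPM ex vivo (log2 fold change -5.31 ± 0.40, SE, edgeR adjusted p = 8.9e-10), a level 39.8-fold lower. Nfkbid had 26.7, 27.2 and 39.2 CPM in culture and 961, 1009.9 and 983 CPM ex vivo (log2 fold change -4.91 ± 0.26, SE, edgeR adjusted p = 8.7e-13). Rel had 71.2, 77.9 and 77.8 CPM in culture and 601, 627 and 634 CPM ex vivo (log2 fold change -2.95 ± 0.35, SE, edgeR adjusted p = 5.8e-07). Tnfaip3 in culture lay within its range over the 26 spleen libraries (61.7 to 209 CPM) and Nfkbid at the lower edge of its own (28.2 to 149.9 CPM). Rel lay below all of them (172 to 285 CPM) and Nfkbiz above all (78.3 to 148 CPM). Nfkbia, at 908 to 1056 CPM in culture, lay within its spleen range (717 to 1069 CPM).

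Nfkbia had 908, 1056 and 979 CPM in culture (log2 fold change -2.18 ± 0.14, SE, edgeR adjusted p = 6.0e-13) and Nfkbiz 298, 291 and 312 CPM (log2 fold change -1.93 ± 0.23, SE, edgeR adjusted p = 3.7e-07), against 4820.0, 4589.6 and 4721 and 1269, 1147 and 1233 CPM ex vivo. On the higher side, Nfkb1 had 434, 409 and 467 CPM in culture and 268, 322 and 321 CPM ex vivo (log2 fold change 0.61 ± 0.14, SE, edgeR adjusted p = 0.00066). Nfkb2 had 219, 217 and 226 CPM in culture and 162, 188 and 174 CPM ex vivo (log2 fold change 0.42 ± 0.11, SE, edgeR adjusted p = 0.0021). Relb had 118, 114 and 114 CPM in culture and 85.8, 99.8 and 95.1 CPM ex vivo (log2 fold change 0.39 ± 0.13, SE, edgeR adjusted p = 0.011). Rela and Malt1 were not called. The calls of these 8 members held under each alternative. The immediate early or heat shock list fell together with Nfkbia, Tnfaip3, Nfkbid and Nfkbiz. Of its 24 genes 19 were lower and 3 higher, beside 25.7% of all genes lower and 23.8% higher. Its summed level was 4413 to 4775 CPM in culture and 26489 to 27982 CPM ex vivo. The part of this list in the difference was not tested.

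The genes whose levels ran most like each member over the 18 ex vivo group means (Pearson correlation of mean log2 CPM, genes outside the 10) are given as a description, since all points share the large tissue difference. Nfkbia ran most like Junb (0.996), Ctla4 (0.995) and Csrnp1 (0.994), Nfkbiz like Csrnp1 (0.996), Ppp1r15a (0.996) and Nr4a1 (0.996). Nfkbid ran most like Gm8818 (0.993), Gadd45b (0.992) and Ccr1 (0.992) and Tnfaip3 like Dgat1 (0.992), Tob2 (0.990) and Ctla2a (0.989). Several of these (Junb, Csrnp1, Ppp1r15a and Nr4a1) are known as rapidly induced genes. Relb ran most like Cd83 (0.953), Tapbpl (0.953) and Ttn (0.946), and Nfkb2 like Bcl3 (0.851), Bhlhe40 (0.832) and Mrps6 (0.830). For Rel the closest were Gm43430 (0.984), Traf1 (0.982) and Ets2 (0.967), and for Malt1 Hacd3 (0.968), Pdcd1 (0.958) and Pld3 (0.956). For Nfkb1 they were Tfip11 (0.943), Gm43411 (0.936) and Nop53 (0.930) and for Rela Fbxl14 (0.734), Tmem134 (0.733) and Scyl3 (0.731). Among the members themselves, the highest correlations over the 9 VAT group means were Nfkbia with Nfkbiz (0.95), Nfkb2 with Relb (0.88) and Nfkbid with Tnfaip3 (0.85). In spleen the same pairs gave 0.12, 0.67 and 0.78. As they were picked by their VAT values, lower values in spleen are not a result about the tissues. Picked by spleen values, Nfkbid with Malt1 gave 0.86 in spleen and 0.11 in VAT, and Tnfaip3 with Malt1 0.83 and 0.19. The most negative spleen pair was Rel with Tnfaip3 (-0.85).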

How the data were processed

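Deposited counts are whole-number counts per gene, made by the authors with STAR 2.7.3a and featureCounts on mm10, per the submitters' processing notes. The annotation release, strand setting and treatment of multimapping reads are not stated in these sources, and 96.2% of gene rows matched GENCODE M21. CPM is counts over the library total, and per-length values divide it by the union length of all exons annotated for the gene in GENCODE M21. 18 PCR cycles without molecular identifiers mean that counting limits cover counting error only. Tests were the quasi-likelihood test of edgeR 4.0.16 (R 4.3.3, TMM scaling, filterByExpr by group, robust fit) with adjustment over all genes tested, fitted over all VAT, all spleen, all ex vivo, all culture, or VAT and culture libraries, and the scripts were tested on simulated data. The culture against week 0 comparison joins 2 experiments. Alternatives were RLE scaling, no filter, DESeq2 1.42.0, limma 3.58.1 (voom), only the groups compared, a replicate block and leaving out each library. Of 52 replicate pairs, 0 held identical values. Same-numbered libraries did not deviate together throughout, so numbers were not taken as pairs. The members and gene lists were chosen with earlier results of these data known. Named list genes were up to 3 in each direction with the smallest p among those called. Statements that groups were apart or overlapped describe the libraries listed, since the share of all genes apart in the same way is not given here.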

Additional observations from a re-analysis of the deposited data

Results flagged for a closer look

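Diet effects that differed between VAT and spleen by a test of the difference itself stood out for Relb and Nfkbia at week 16 and for Rel and Relb in the mean of weeks. At week 16 the effect in VAT minus that in spleen was 1.32 ± 0.23 for Relb and -1.22 ± 0.17 for Nfkbia, on the log2 scale with SE. In the mean of weeks it was 0.74 ± 0.19 for Rel and 0.44 ± 0.11 for Relb. Diet effects in VAT that differed between week 16 and the mean of weeks 2, 4 and 8, again by a test of the difference itself, were those of Relb at 1.03 ± 0.18, Nfkbia at -1.33 ± 0.18 and Nfkbiz at -1.21 ± 0.30. VAT NCD at week 16 had 2 libraries, which all of the week 16 differences share.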

How the results depend on the processing

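Of 55 called pairs of member and comparison, 38 kept the call under every alternative run, 17 lost it under at least 1, and 0 changed sign; over 1081 alternatives 1015 kept it. Counts of called members in this paragraph, and those with the replicate block, are each followed in parentheses by the share of all genes called in the same fit. For the VAT diet comparison, the members called at week 2 were 0 (0.0565%) by edgeR, 3 (0.433%) without the filter, 4 (0.628%) by DESeq2, 1 (0.12%) by limma and 2 (0.11%) with only the groups compared. At week 4 edgeR called 0 (0.0212%), and it was 1 (0.307%) without the filter, 1 (0.499%) by DESeq2 and 1 (0.284%) with only the groups compared. At week 8 the count was 1 (1.33%), against 2 (1.24%) without the filter, 2 (3.31%) by DESeq2 and 3 (1.36%) with only the groups compared. At week 16 it was 3 (9.24%), against 6 (10.9%) by DESeq2, and in the mean of weeks 4 (4.2%), against 2 (0.861%) without week 16. For VAT NCD week 16 against week 0 the count was 0 (0.713%), against 2 (1.07%) without the filter, 1 (3%) by DESeq2, 1 (2.74%) by limma and 4 (6.75%) with only the groups compared. For VAT HFD week 16 against week 0 it was 2 (5.13%), against 4 (2.38%) without the filter and 5 (7.71%) by DESeq2. In spleen the week 4 count was 2 (1.24%), against 1 (0.946%) by limma and 1 (1.6%) with only the groups compared. At week 16 it was 0 (0.0%), against 1 (0.196%) by DESeq2, in the mean of weeks 1 (0.933%), against 3 (1.25%) without the filter and 2 (3.81%) by DESeq2, and for NCD week 16 against week 0 1 (0.654%), against 2 (0.704%) without the filter, 2 (2.13%) by DESeq2 and 0 (0.463%) by limma. The difference between tissues gave 2 (4.46%) at week 16 and 2 (2.44%) in the mean of weeks, against 4 (2.19%) and 4 (1.86%) without the filter. The cause of these shifts was not tested.

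Leaving out 1 library gave 0 to 2 called members in VAT at week 2, 2 to 5 at week 16, 2 to 5 in the mean of weeks and 2 to 4 for HFD week 16 against week 0. In spleen the ranges were 0 to 1 at week 4, 0 to 2 in the mean of weeks, 0 to 0 for NCD week 16 against week 0 and 0 to 2 for HFD week 16 against week 0, and for the difference between tissues in the mean of weeks 0 to 3. Where a group was left with 1 library, the fit took its spread from the remaining groups, an assumption that was not tested. The shares of all genes called in these fits are not given here, so the ranges are not read as a result about the members.

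Replicate numbers were checked for pairing. Same-numbered libraries correlated in their deviations from the group means by -0.19 to 0.36 over 24 pairs, 3 of them over 0.1 and all at HFD week 16, between VAT and spleen, by -0.062 to 0.13 over 10 pairs, 1 of them over 0.1, between VAT diets, by -0.14 to 0.33 over 11 pairs, 2 of them over 0.1, between spleen diets and by 0.033 to 0.045 over 2 pairs, 0 of them over 0.1, in culture. The 3 VAT and spleen pairs of HFD week 16 stood at 0.36, 0.14 and 0.29, and the 2 of NCD week 16 at 0.027 and 0.019. With the replicate block the count was 2 (0.148%) in VAT at week 2, 1 (0.77%) for VAT NCD week 16 against week 0, 4 (5.19%) for VAT HFD week 16 against week 0 and 1 (1.02%) in spleen at week 4, and for the week 16 difference between tissues it was 2 (4.62%). It stayed within 1.5 times the count without the block in the other comparisons. The block gave each replicate number a term shared by all groups of a fit, so it cannot represent libraries paired by mouse. Pairs of the same diet, week and number were fitted only for VAT against spleen without HFD and at week 0. The week 16 difference between tissues was not fitted with such pairs.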
